A study of Caenorhabditis elegans with 6 samples.

Results

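The ceh genes are the numbered homeobox genes of the nematode Caenorhabditis elegans. They were taken as every gene whose symbol on the Affymetrix C. elegans array was ceh followed by a number, which gave 60 of the 17118 genes with a symbol of their own. The 60 genes were read by 74 of 22548 probe sets, and each gene was represented by its brightest probe set, judged by the mean of the 6 arrays. Of 65 ceh genes in the RefSeq table, 60 were measured under this rule and the others were not analysed here. The space group was 3 arrays of worms exposed to the space condition, and the ground group was 3 arrays of ground controls. All 6 were labelled as technical replicates. All worms were of strain CC1, called wild type by the submitters, and grew in CeMM, a liquid maintenance medium. The flown worms lived on the International Space Station for up to 10 generations, exposed to space radiation and microgravity, and a machine moved them to new medium about every 1 month. The flown cultures held worms of all stages, and the ground cultures were passaged in parallel. Nothing in the labels says that arrays of a group came from separate cultures. The p-values thus rest on the variation among 3 arrays a group, which the labels call technical replicates. They may not reflect variation between cultures, and n counts arrays throughout.

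A homeobox encodes a homeodomain, a small helical fold that binds DNA, and genes that carry one code for transcription factors. In C. elegans these factors pattern the embryo, set the identity of single neurons and shape muscle, epidermis and gonad. Many act in a handful of cells, so their transcripts make up little of the RNA of a whole worm. The classes are named after well-known members: ANTP (Hox and NK genes), PRD (paired-type), LIM, POU, CUT, sine oculis and TALE.

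Few ceh genes differed between the groups. Differences are given as log2 fold changes, space over ground, on the scale log2(intensity + 16), and a gene was called where the adjusted p from limma fell under 0.05 and the difference was 2-fold or more. By that rule 1 of 60 ceh genes rose, ceh-91, and 1 fell, ceh-39. Among all 17118 genes 7.76% were called, 5.34% higher and 2.42% lower, so the share of called ceh genes, 3.33%, was no higher than that of the array as a whole. With no demand on size, the adjusted p alone picked out the same 1 higher and 1 lower ceh gene, and 9.64% of all genes. Of the 74 ceh probe sets 2 were called, against 7.31% of all probe sets. At an unadjusted p under 0.05, limma found 2 higher and 6 lower ceh genes, which are 3.33% and 10% of them. The same counts over all genes came to 15.1% higher and 10.5% lower. These shares over all genes are the background for each class and list count below. The space and ground arrays did not overlap for 8 ceh genes, 3 higher and 5 lower in space, which is 13.3% of them. Over all genes 31.4% did not overlap.

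Most ceh intensities were low. The 8 control probe sets for yeast and bacterial sequences absent from worms read at most 86.7, with a median of 6.48, and 36 of the 60 ceh genes (60%) had a mean over the 6 arrays no higher than that maximum. Of all genes, 43% lay there. On every array 17 ceh genes stood above 86.7, 26 stood below it on every array, and 17 were above it on some. Array intensities depend on the probes as well as on the RNA, so their order is not an order of transcript abundance. Among the 24 genes above the maximum, 1 rose and 1 fell, and 11.8% of all genes above it were called. Of the 36 at or below it, limma called 0, with 1 higher and 4 lower at an unadjusted p under 0.05, and 2.45% of all such genes were called. The median standard error was 0.25 log2 units for the brighter ceh genes and 0.35 for the dimmer ones. For 12 of the 24 brighter genes the 95% interval of the difference lay within 2-fold in both directions, and for the others a 2-fold difference is not excluded. Of the 36 dimmer genes 13 had such an interval too, but there the added 16 shrinks any fold, so it sets no limit on the difference in RNA.

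**Figure D1:**
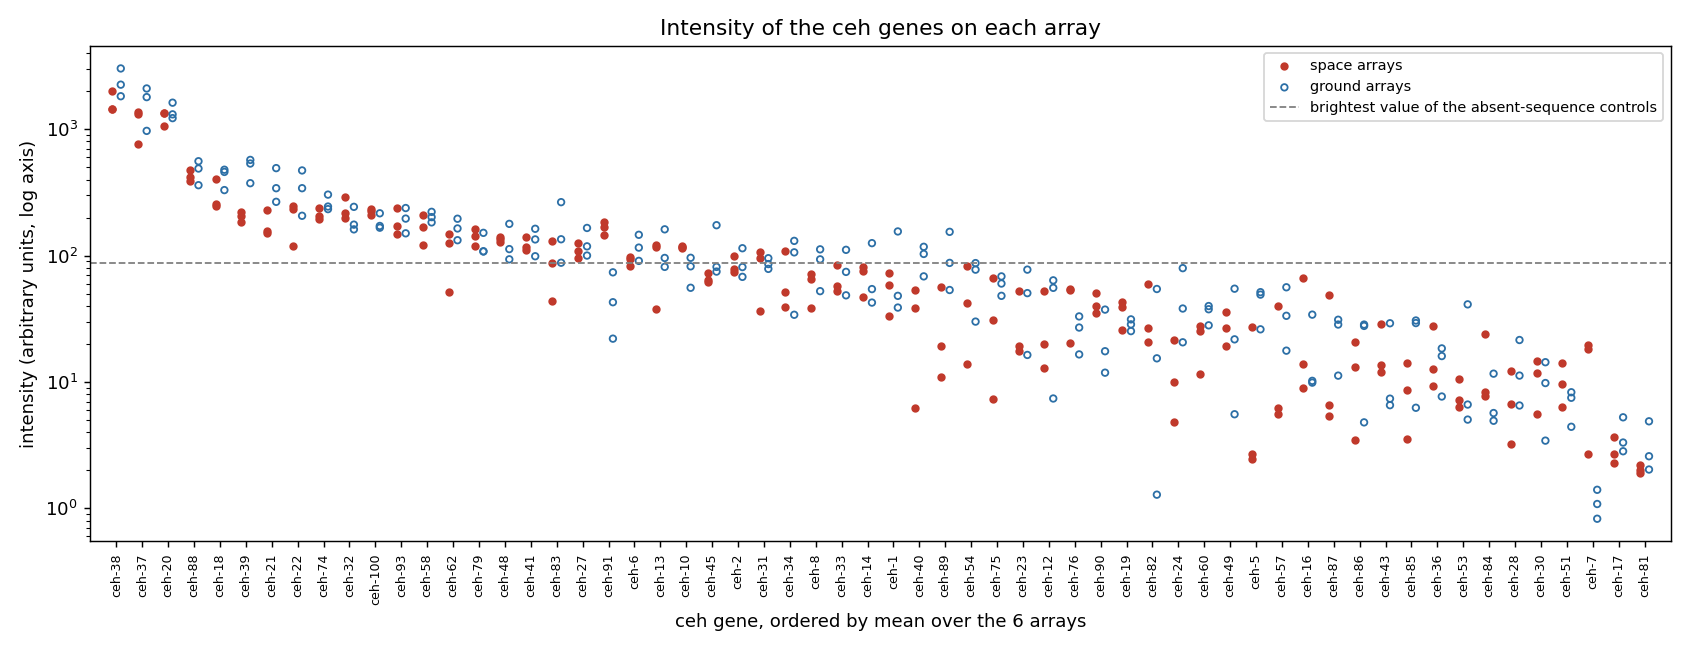
Intensity of each ceh gene on the 3 space arrays (filled) and the 3 ground arrays (open), on a log axis, ordered by the mean over the 6 arrays. The dashed line is the brightest reading of the absent-sequence controls, 86.7, and 36 of 60 genes had a mean at or below it.

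The gene ceh-91 codes for a homeodomain protein and was not assigned to one of the classes above. Its intensities were 145.5, 183.2 and 167.4 on the space arrays, against 42.78, 22.03 and 73.74 on the ground arrays. All 3 space values exceeded all 3 ground values, and the ground values lay within the range of the absent-sequence controls. Its mean was 165.4 ± 18.96 in space and 46.18 ± 26.02 on the ground (SD, n = 3 each). The log2 fold change was 1.63 ± 0.32 (SE, limma adjusted p = 0.0229, 95% interval 0.88 to 2.37). Because the ground level is close to background, the size depends on the pseudocount, at 1.97 with a pseudocount of 1 (adjusted p = 0.0621) and 1.08 with 64 (adjusted p = 0.011). The call was lost when any 1 of 5 arrays was left out, with limma's adjusted p at 0.059 without space 1, 0.0836 without space 2, 0.0786 without space 3, 0.0589 without ground 1 and 0.0513 without ground 2. Its size in those fits ran between 1.31 and 1.71.

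In the CUT class, ceh-39 fell and its near neighbour ceh-21 lay just short of the threshold. CEH-39 is one of the X-linked signals by which the worm counts its X chromosomes in sex determination, where it represses xol-1. Its intensities were 207.6, 221.1 and 184.9 on the space arrays, against 374.1, 571.7 and 535.3 on the ground arrays, without overlap. The mean was 204.5 ± 18.27 in space and 493.7 ± 105.2 on the ground (SD, n = 3 each), and the log2 fold change was -1.19 ± 0.23 (SE, limma adjusted p = 0.0222). The call was lost without space 1 (adjusted p = 0.0626), space 2 (0.0722), space 3 (0.0868), ground 2 (0.0681) or ground 3 (0.0621), with changes of -1.24 to -1.08 in these limma fits. A pair of dimmer ceh-39 probe sets stood at -0.48 ± 0.25 (adjusted p = 0.281) and -0.38 ± 0.50 (adjusted p = 0.706, limma). With all its probe sets averaged, ceh-39 stood at -0.69 with an adjusted p of 0.0694.

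The genes ceh-41, ceh-21 and ceh-39 lie close together on the X chromosome. In the RefSeq table no protein-coding gene lies between ceh-41 and ceh-21, and 1 lies between ceh-21 and ceh-39. The intensities of ceh-21 were 152.3, 231.4 and 157.3 in space, against 341.5, 492.3 and 266.4 on the ground. The groups did not overlap, but the log2 fold change of -0.94 ± 0.29 had an adjusted p of 0.0823 (limma, 95% interval -1.60 to -0.28). After quantile normalization ceh-21 stood at -1.11 with an adjusted p of 0.0425, past the threshold. Its other probe sets stood at -0.37 each (adjusted p = 0.423 and 0.557, limma). For ceh-41 the values were 110.8, 116.4 and 141.5 in space, against 98.86, 163 and 134.3 on the ground, which overlapped. Its log2 fold change was -0.08 ± 0.24, with a 95% interval of -0.63 to 0.48, so a 2-fold difference lies outside it. The transcript of xol-1 had means of 28.33 in space and 16.71 on the ground, within the range of absent sequences, and a log2 fold change of 0.39 ± 0.54 (limma adjusted p = 0.721).

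The remaining CUT genes did not pass. CUT factors act together in C. elegans to switch on the genes that all neurons share. The widely expressed ceh-38 had the highest intensities of the family, 1439, 2013 and 1456 in space, against 1824, 3026 and 2252 on the ground. These ranges overlapped, and its log2 fold change was -0.52 ± 0.26 (limma adjusted p = 0.281). Its dimmer probe set had the opposite sign, at 0.20 ± 0.36. The neuronal gene ceh-48 read 129, 139.9 and 136.5 in space, against 112.6, 178.3 and 93.48 on the ground, with a difference of 0.11 ± 0.26, and ceh-49 stood at 0.15 ± 0.41. Of 19 genes expressed in all neurons 1 fell, the synaptic vesicle gene rab-3 (-1.07 ± 0.21, limma adjusted p = 0.0212), and 0 rose. No gene of this list was called without space 1, 2 or 3, without ground 1 or 2, or with averaged probe sets. The same held without probe sets whose ID marks probes also matching other sequences, as that of rab-3 does. Summed over the list, intensities came to 28610 to 30840 in space against 36550 to 40230 on the ground, without overlap. Most of that gap came from snb-1 (means of 9569 in space and 12770 on the ground) and egl-3 (6665 and 8737), which were not called. Of the 19 genes 7 lay above 0. At an unadjusted p under 0.05, limma found 0 of them higher and 4 lower. The groups did not overlap for 6 of them, all lower in space. Over all genes 13.8% were lower in space without overlap. In bulk RNA a difference in cell number cannot be told apart from one in RNA per cell, and the cause was not tested.

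**Figure D2:**
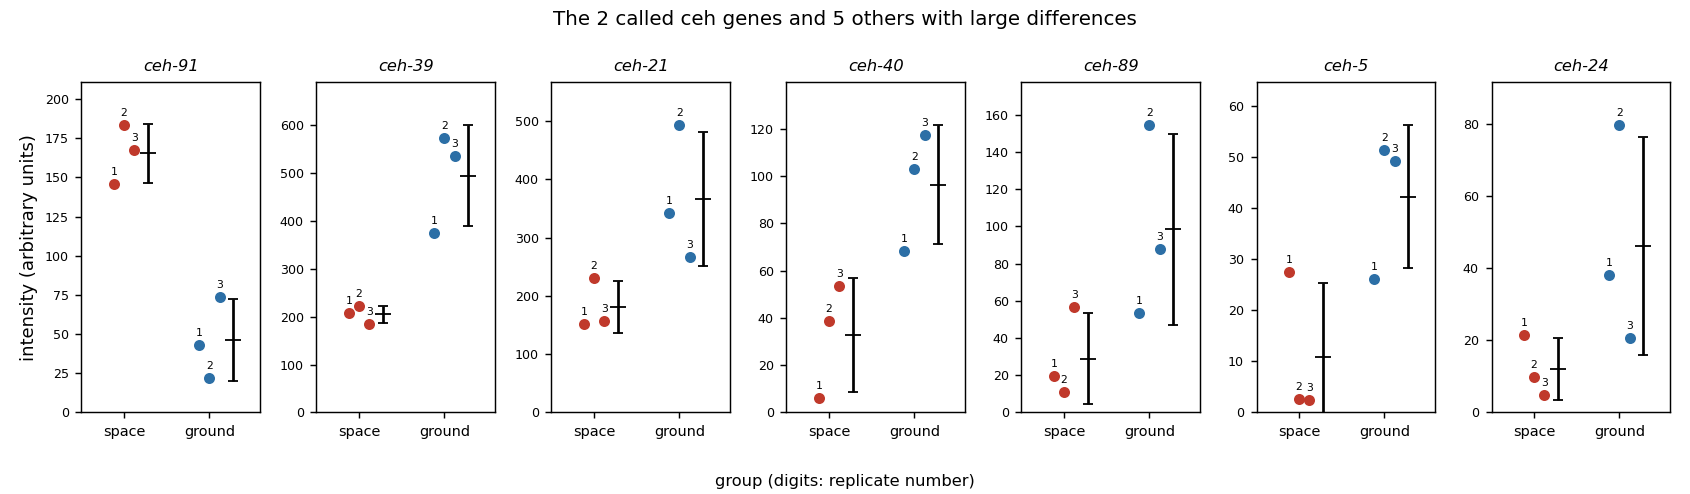
Intensities on the 3 space arrays (left in each panel) and the 3 ground arrays (right) for the 2 called genes, ceh-91 and ceh-39, and for 5 others with large differences, with mean and SD beside the points (the SD bar of ceh-5 is clipped at 0). The groups are apart for ceh-91, ceh-39, ceh-21 and ceh-40, and overlap for ceh-89, ceh-5 and ceh-24.

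The TALE class holds the partners of Hox proteins. CEH-20 is the Pbx homologue that binds DNA together with Hox factors, CEH-40 is a second Pbx protein that overlaps with it in the embryo, and CEH-60 is a further one that acts in the gut on yolk production. The intensities of ceh-20 were 1055, 1344 and 1340 in space, against 1224, 1311 and 1622 on the ground. They overlapped, and the log2 fold change of -0.15 ± 0.22 had a 95% interval of -0.66 to 0.36. For ceh-40 the values were 6.178, 38.82 and 53.54 in space, against 68.5, 103.1 and 117.4 on the ground. The groups did not overlap, yet the spread on the space arrays was wide and the log2 fold change of -1.33 ± 0.43 did not pass (limma adjusted p = 0.0978). Without space 1, the lowest array, ceh-40 stood at -0.84. Its space values and its ground 1 value lay within the range of absent sequences. The size of its change was -1.93 with a pseudocount of 1 and -0.75 with 64. The gene ceh-60 was lower on every space array, at 11.47 to 27.96, against 28.08 to 39.89 on the ground, all within the range of absent sequences (-0.47 ± 0.25, adjusted p = 0.303).

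Among the cofactors of homeodomain proteins limma called 0 of 6, with 0 higher and 2 lower at an unadjusted p under 0.05. The Meis homologue unc-62, whose product pairs with Pbx proteins, read 189.2, 277.5 and 300 in space, against 406.4, 1036 and 547.5 on the ground. The groups did not overlap, and its log2 fold change of -1.24 ± 0.36 had an adjusted p of 0.0737. It passed in 5 of 15 alternatives, among them median centring (-1.28, adjusted p = 0.0413, limma), a minimum mean of 100, an intensity trend and averaged probe sets. Its probe set has an ID that marks probes also matching other sequences. Of 16 reported targets of ceh proteins measured, 1 fell and 0 rose in limma. The member that fell was vit-5, a yolk protein gene, at 14.29, 11.79 and 22.21 in space, against 89.09, 152.9 and 121.9 on the ground (-2.08 ± 0.25, adjusted p = 0.00617), on a probe set with the same mark. Its space values lie within the range of absent sequences, and its size was -2.85 with a pseudocount of 1 and -1.20 with 64. The count of targets was 0 without marked probe sets or with a minimum mean of 100, and 2 after quantile normalization or without ground 3. The other yolk genes were not called, with vit-2 higher on every space array (0.50 ± 0.23), vit-1 at 0.20 ± 0.26, vit-6 at -0.31 ± 0.22 and vit-4 at -0.84 ± 0.37. The pharyngeal myosin gene myo-2, a target of CEH-22, stood at -0.72 ± 0.24 (adjusted p = 0.107).

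Of the 18 ANTP genes limma called 0, with 1 higher and 2 lower at an unadjusted p under 0.05. CEH-22, an NK-2 factor that switches on pharyngeal muscle genes, had the highest intensities of the class, 118.7, 245.1 and 233.8 in space, against 206.6, 341.5 and 471.9 on the ground. They overlapped, and its log2 fold change was -0.71 ± 0.37 (limma adjusted p = 0.288). Of 12 pharynx genes 0 were called, with 1 higher and 4 lower at an unadjusted p under 0.05, with a median of 0.07 and 7 of 12 above 0. Their summed intensity was 7347 to 8190 in space and 9569 to 10810 on the ground, and most of that gap came from the muscle myosin gene myo-1, with means of 2290 in space and 4646 on the ground (-0.99 ± 0.24, adjusted p = 0.0427, short of 2-fold). Limma called 1 pharynx gene after quantile normalization, after median centring or without ground 1. The anterior Hox gene ceh-13, the labial homologue, overlapped between the groups, with 117.8, 121.7 and 37.77 in space against 95.83, 81.44 and 161.4 on the ground. Its difference was -0.32 ± 0.41 (95% interval -1.27 to 0.63). The NK-2 related gene ceh-27 stood at -0.18 ± 0.24 and ceh-62 at -0.62 ± 0.35.

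The ANTP genes ceh-5 and ceh-24 differed by more than 2-fold without passing, and both were dim on all arrays. For ceh-5 the values were 27.47, 2.71 and 2.46 in space, against 26.11, 51.37 and 49.14 on the ground. Space 1 reached the level of ground 1, so the groups overlapped, and the log2 fold change of -1.21 ± 0.38 had an adjusted p of 0.0915 (limma). Without space 1 it was -1.62 with an adjusted p of 0.0367, past the threshold. The NK-2 type gene ceh-24, active in vulval muscle and head neurons, read 21.37, 9.939 and 4.831 in space, against 38.14, 79.58 and 20.61 on the ground (-1.08 ± 0.38, adjusted p = 0.13). These sizes depend on the pseudocount, at -2.54 for ceh-5 and -1.86 for ceh-24 with 1, and at -0.51 and -0.50 with 64. The gene ceh-7 was higher on every space array, at 2.682, 19.62 and 18.4, against 1.403, 0.8281 and 1.083 on the ground, with a log2 fold change of 0.73 ± 0.28 (adjusted p = 0.16). All 6 of its values were below the maximum of the absent-sequence controls.

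The other ANTP genes lay between -0.44 and 0.28 with overlapping groups. They include ceh-16, the engrailed homologue of the epidermal seam cells (0.28 ± 0.48), and ceh-43, the Distal-less homologue needed in the anterior epidermis and for dopamine neurons (0.21 ± 0.33). They also include the Emx homologue ceh-2 of pharyngeal neurons (-0.04 ± 0.24) and the motor neuron gene ceh-12, an HB9 homologue (-0.30 ± 0.52). The BarH-type pair ceh-30, which keeps male head neurons alive, and ceh-31, which lies next to it, stood at 0.09 ± 0.25 and -0.19 ± 0.34. The mesoderm gene ceh-51 (0.19 ± 0.21), the M4 neuron gene ceh-28 (-0.30 ± 0.27) and the pharyngeal motor neuron gene ceh-19 (0.22 ± 0.22) were dim on all arrays, and ceh-1 (-0.29 ± 0.45) and ceh-23 (-0.44 ± 0.44) complete the class.

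The PRD genes, several of which fix the identity of sensory neurons and interneurons, gave 0 calls among 8, with 0 in either direction at an unadjusted p under 0.05 in limma. CEH-37 is an Otx-type factor of the AWB olfactory neurons. Its gene read 761.2, 1369 and 1318 in space, against 970.4, 1795 and 2101 on the ground, with overlap and a log2 fold change of -0.47 ± 0.36 (limma adjusted p = 0.488). On its dimmer probe set the sign was opposite, at 0.26 ± 0.20. The related ceh-36, which lies beside it on the X chromosome and acts in AWC and ASE neurons, was dim on all arrays (0.09 ± 0.28). CEH-10, the Chx10 homologue that works with TTX-3 in the AIY interneuron, read 118.8, 116 and 115.7 in space, against 82.27, 55.65 and 96.09 on the ground. These did not overlap, and the log2 fold change of 0.52 ± 0.23 did not pass (adjusted p = 0.21). The goosecoid homologue ceh-45 went the other way without overlap, at 61.96 to 72.52 in space against 74.76 to 174 on the ground (-0.53 ± 0.31, adjusted p = 0.342). Only its ground 2 value lay above the range of absent sequences. The Rax homologue ceh-8 (-0.43 ± 0.31), ceh-54 (-0.46 ± 0.48), ceh-53 (-0.33 ± 0.38) and the Phox2 homologue ceh-17 (-0.07 ± 0.19) had overlapping groups.

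**Figure D3:**
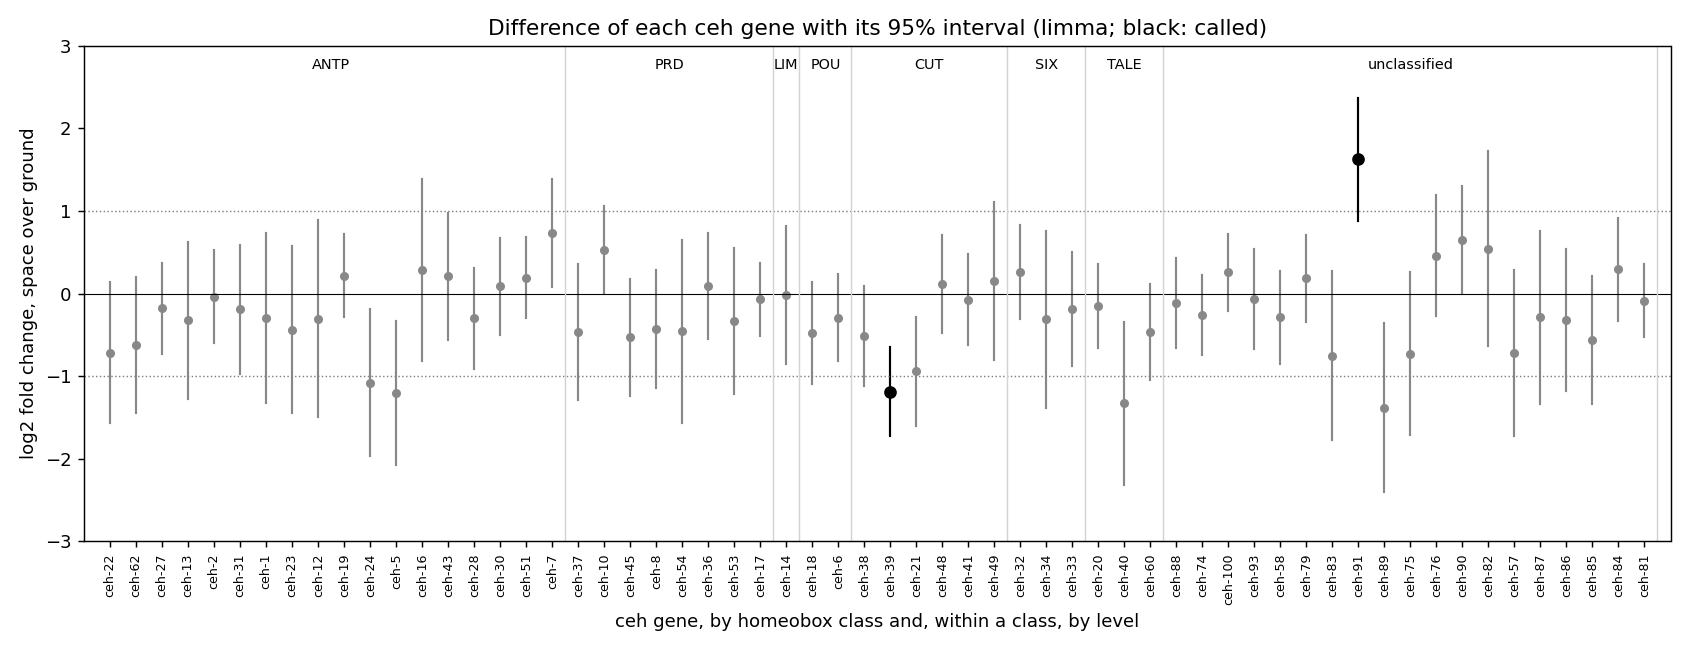
Log2 fold change, space over ground, of the 60 ceh genes with the 95% interval from limma, grouped by homeobox class and ordered by level within each class. The called genes ceh-91 (1.63) and ceh-39 (-1.19) are black, and dotted lines mark a 2-fold difference.

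The LIM, POU and sine oculis genes were not called either. The LIM gene ceh-14, an Lhx3 homologue of thermosensory AFD and other neurons, stood at -0.02 ± 0.36, with a 95% interval of -0.85 to 0.81. The POU gene ceh-18, which acts in the sheath cells of the gonad to hold oocytes in meiotic arrest, read 256.4, 405.3 and 247.7 in space, against 329.9, 459.4 and 478.1 on the ground. The groups overlapped, and its difference of -0.47 ± 0.27 had an adjusted p of 0.329 (limma). The excretory canal POU gene ceh-6 stood at -0.29 ± 0.23. Among the sine oculis genes, ceh-32, which shapes the head, read 198.5, 289.3 and 215.7 in space, against 161.3, 243.1 and 175.8 on the ground (0.26 ± 0.25). The adjacent genes ceh-33 and ceh-34 stood at -0.18 ± 0.30 and -0.31 ± 0.46. CEH-34 specifies pharyngeal neurons together with EYA-1, whose gene stood at -0.999 ± 0.47 (adjusted p = 0.245).

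Of the 19 genes not assigned to a class here, 1 was called, ceh-91. The dim gene ceh-89 stood at -1.38 ± 0.44, with 19.41, 10.93 and 56.55 in space against 53.44, 154.2 and 87.57 on the ground. Space 3 exceeded ground 1, and limma's adjusted p was 0.0985. Its size was -1.91 with a pseudocount of 1 and -0.79 with 64. Its near neighbour ceh-90, with 1 protein-coding gene between them, read 35.43, 51.01 and 40.26 in space, against 11.85, 17.52 and 37.4 on the ground (0.65 ± 0.28, adjusted p = 0.204). All the ceh-90 values lay within the range of absent sequences. The brightest of these genes, ceh-88, stood at -0.11 ± 0.23, ceh-74 at -0.26 ± 0.21, ceh-100 at 0.26 ± 0.20, ceh-93 at -0.07 ± 0.26, ceh-79 at 0.19 ± 0.23 and ceh-83 at -0.75 ± 0.44. Adjacent ceh-57 and ceh-58 stood at -0.72 ± 0.43 and -0.29 ± 0.24, and ceh-57 was dim on all arrays. The others were dim on all arrays with overlapping groups, at -0.73 ± 0.43 for ceh-75, 0.46 ± 0.32 for ceh-76, 0.55 ± 0.51 for ceh-82 and -0.57 ± 0.34 for ceh-85. In the same range were ceh-81 (-0.08), ceh-84 (0.29), ceh-86 (-0.32) and ceh-87 (-0.29).

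Though few passed singly, more ceh genes lay below 0 than above it, 42 of 60 (70%), against 51.3% of all genes. The median log2 fold change was -0.275 over the ceh genes, against -0.018 over all 17118 genes. The size of this median depended on single arrays. It was -0.11 without space 1, -0.18 without space 2 and -0.25 without space 3. Without ground 1, 2 or 3 it was -0.24, -0.10 and -0.21. The median over all genes ran from -0.059 to 0.040 in these fits. The median ceh intensity was 49.71, 51.88 and 57.52 on space 1, 2 and 3, against 52.89, 80.51 and 74.04 on ground 1, 2 and 3. Ground 1 thus lay among the space arrays, and ground 2 and ground 3 stood above them. Set against the mean of the space arrays, the median ceh difference (space minus ground) was 0.0225 for ground 1, -0.381 for ground 2 and -0.21 for ground 3. Ground 2 held the highest of the 6 values for 22 of 60 ceh genes (36.7%) and for 26.5% of all genes.

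The hybridisation controls, bacterial and phage transcripts mixed in before the arrays were hybridised, split the arrays the same way. Their mean log2 intensity was 9.838, 9.714 and 9.851 on space 1, 2 and 3, against 9.767, 10.44 and 10.57 on ground 1, 2 and 3. The 12 probe sets for Bacillus transcripts, controls for labelling, averaged 10.17 ± 0.30 in space against 11.13 ± 0.0693 on the ground (log2, SD, n = 3 each). For actin, the 5' control probe set less the 3' one (log2) came to -2.939, -3.261 and -3.157 on the space arrays, against -3.589, -4.031 and -4.298 on the ground arrays. The part of these differences in the ceh values was not tested.

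**Figure D4:**
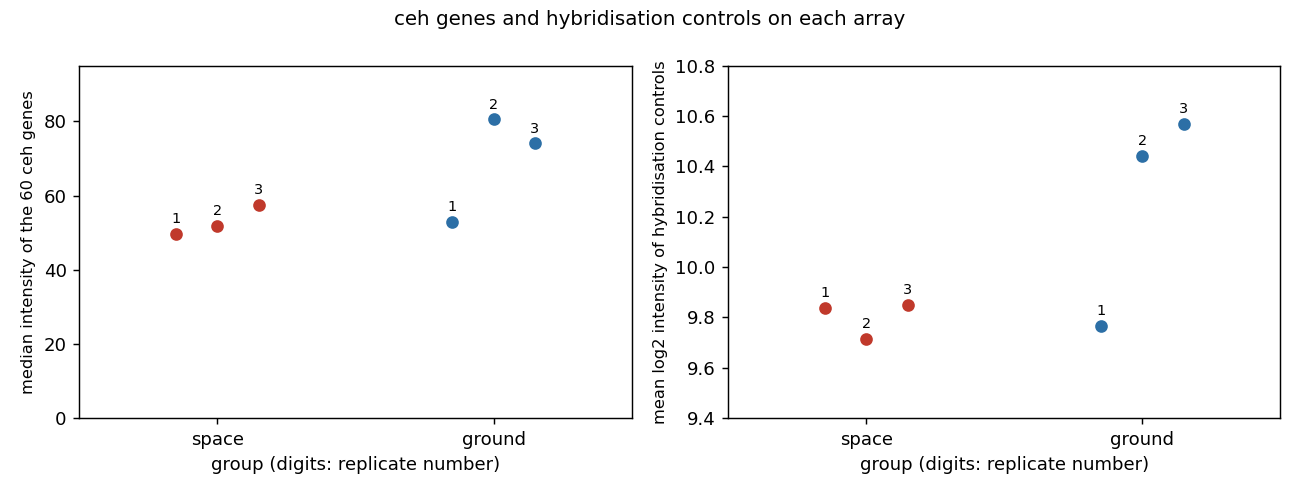
Median intensity of the 60 ceh genes (left) and mean log2 intensity of the hybridisation controls (right) on each of the 3 space and 3 ground arrays, with replicate numbers as digits and, on the right, an axis that does not start at 0. Ground 1 lies near the space arrays in both panels, and ground 2 and ground 3 lie above them.

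The probe sets of a gene did not always give the same direction. Of 12 ceh genes with several probe sets, 7 had the same sign on all of them and 5 did not. The 5 were ceh-20, ceh-37, ceh-38, ceh-41 and ceh-58, and in each the brightest probe set was negative and the dimmer one positive. For ceh-58 the brighter one stood at -0.29 ± 0.24 and the dimmer at 0.33 ± 0.24, and for ceh-20 the pair stood at -0.15 ± 0.22 and 0.23 ± 0.25. None of these 10 values was called, and at an unadjusted p under 0.05 limma found 0 of them. For 12 of the 60 ceh genes the chosen probe set had an ID that marks probes also matching other sequences.

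**Figure D5:**
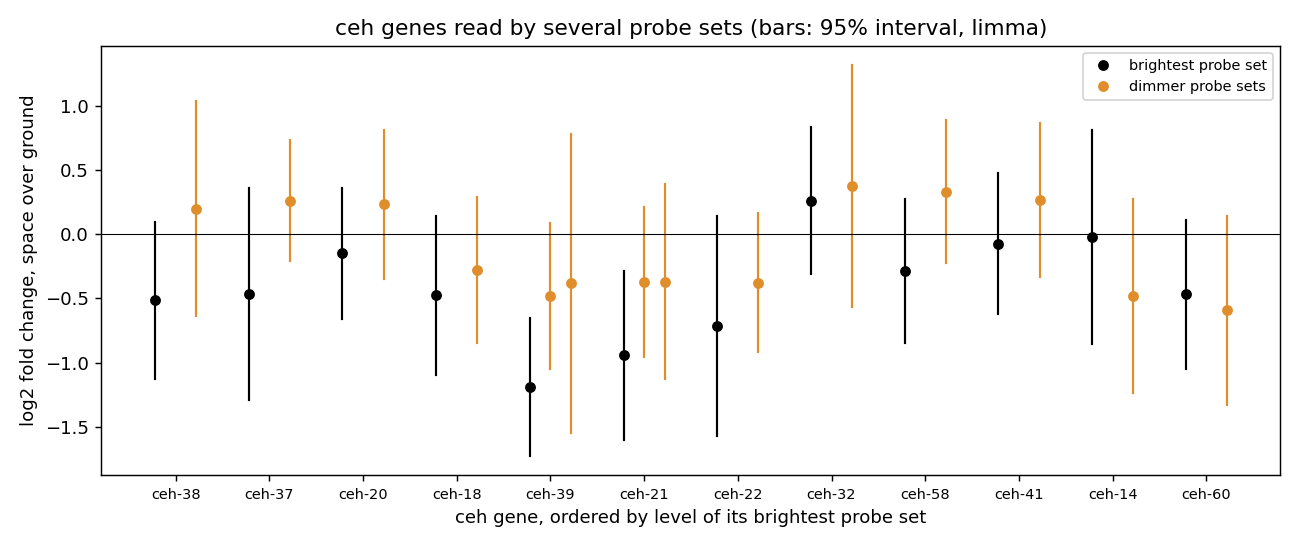
Log2 fold change, space over ground, with the 95% interval from limma for each probe set of the 12 ceh genes read by several, black for the brightest probe set and orange for dimmer ones. All 3 probe sets of ceh-39 and of ceh-21 are negative, and ceh-38, ceh-37, ceh-20, ceh-58 and ceh-41 have probe sets of both signs.

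Homeobox genes with names other than ceh were set beside them. Of 38 measured, 1 rose and 3 fell in limma, with a median of -0.08. Over all genes 5.34% were called higher and 2.42% lower. The gene that rose was pal-1, the caudal homologue whose maternal transcript patterns the posterior embryo, at 652.7, 1054 and 998.9 in space against 151.4, 240.8 and 340.1 on the ground (1.86 ± 0.33, adjusted p = 0.0164). The zinc-finger homeobox gene zfh-2 (-1.32 ± 0.25, adjusted p = 0.0208), dve-1, a SATB-type gene of the mitochondrial stress response (-1.21 ± 0.23, adjusted p = 0.0208), and vab-3, the Pax6 homologue (-1.24 ± 0.28, adjusted p = 0.0362), fell. Of these 4, 0 were called without space 2, without space 3 or without ground 2. Over all alternatives, the call was lost in 9 of 15 for vab-3 and 8 of 16 for zfh-2. It was lost in 6 of 16 for dve-1 and 4 of 16 for pal-1. The probe set of vab-3 has an ID that marks probes also matching other sequences. The Hox genes lin-39 (0.91 ± 0.32, adjusted p = 0.13), mab-5 (0.28 ± 0.25), nob-1 (-0.18 ± 0.23), egl-5 (-0.21 ± 0.28) and php-3 (0.01 ± 0.20) did not pass. Neither did the neuron identity genes ttx-3 (0.65 ± 0.44), unc-86 (-0.57 ± 0.25) and mec-3 (-0.07 ± 0.23), nor the brightest gene of this list, duxl-1 (0.06 ± 0.23).

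Markers of tissues moved unequally between the groups. Beside the counts below, 5.34% of all genes were called higher and 2.42% lower. Of 17 germline genes 8 rose and 0 fell in limma (0 lower at an unadjusted p under 0.05), with a median of 1.16 and a summed intensity of 12600 to 13500 in space against 5874 to 6277 on the ground. The germline count was 3 without space 1, 3 without space 2, 4 without space 3, 4 without ground 2 and 5 without marked probe sets. Of 14 body-wall muscle genes 2 rose and 1 fell, and the sum was 32790 to 36710 in space against 48450 to 52850 on the ground. Much of that gap came from act-4 (means of 11940 in space and 16420 on the ground) and unc-15 (6987 and 11840). Neither was called, and 4 of the 14 genes lay above 0. At an unadjusted p under 0.05, limma found 2 muscle genes higher and 6 lower. All 3 called muscle genes sit on marked probe sets, so 0 were called without those, and 1 was called without space 2. In the epidermis list 1 of 15 fell and 0 rose, with sums of 10520 to 11690 in space against 16900 to 18300 on the ground. Much of that gap came from lrp-1, with means of 5036 in space and 9648 on the ground. It stood at -0.94 ± 0.19 (limma adjusted p = 0.0264, short of 2-fold), and 4 of the 15 genes lay above 0. At an unadjusted p under 0.05, limma found 0 epidermis genes higher and 4 lower. No epidermis gene was called without space 1, space 3, ground 1 or ground 2, or with a pseudocount of 1, and 2 were called with averaged or without marked probe sets. Of 13 intestine genes 1 fell, vit-5 again, of 9 sperm genes 1 rose (0 without space 2, space 3, ground 2 or ground 3), and of 11 early embryo genes 0 were called (1 higher and 1 lower at an unadjusted p under 0.05). Intestine sums overlapped, at 42490 to 51080 in space against 41900 to 55690 on the ground, as did those of the embryo genes, at 462.5 to 658.7 against 431.2 to 849.2. Sperm sums were 1057 to 1147 in space against 738.1 to 1005 on the ground. The part of tissue make-up in the ceh values was not tested.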

How the data were processed

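The authors deposited linear intensities, 1 per probe set, from 6 Affymetrix C. elegans arrays. Per the labels' protocols, biotin-labelled cRNA was made from 10 to 100 ng of Trizol-extracted total RNA. The tool for summarisation and scaling: not given in the sources used here. With 2% trimmed from each tail, the mean of every array was 500.1 to 500.2, so the arrays had been scaled. Array medians were 103.1 to 128.6, and the number of arrays limits the precision.

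Groups and replicate numbers came from the sample titles. Of 22625 probe sets 77 controls were left out. Values were put on log2(intensity + 16) and tested with limma 3.58.1 (lmFit, eBayes) in R 4.3.3, group as the sole factor. Benjamini-Hochberg adjustment ran over 22548 probe sets. The fit was tried on simulated data with independent noise, which cannot show whether the p-values hold for technical replicates. No filter on dim probe sets was used. Figures used matplotlib 3.10.9 in Python 3.11.15.

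Gene symbols, taken from the platform annotation, were looked up in the RefSeq table of WBcel235, used for names, chromosomes and neighbours. All 60 ceh symbols matched. The members, classes, marker lists and naming rule were chosen with earlier results of these data known. The rule named every ceh gene, in full those called, those at least 2-fold apart without overlap and the brightest of each class, and from other lists members past the threshold, the brightest and a few fixed genes. The genes ceh-21, ceh-89, ceh-5, ceh-24 and ceh-7 were described in full after their values were seen. Intensities of ceh-10, ceh-13, ceh-41, ceh-48 and ceh-90, and ranges for ceh-45 and ceh-60, were also given outside this rule. The alternatives comprised pseudocounts of 1 and 64, median centring, quantile normalization, a minimum mean of 100, an intensity trend, a replicate block, averaged probe sets, no shared probe sets, and leaving out arrays.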

Additional observations from a re-analysis of the deposited data

How the results depend on the processing

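Of the 60 ceh genes, 1 rose and 1 fell. No ceh gene rose with a pseudocount of 1 (0 higher) or without space 1 and ground 3 together (0 higher, 0 lower, and 0 of all probe sets in limma). Quantile normalization gave 2 lower, adding ceh-21. Averaging probe sets gave 0 lower, since ceh-39 lost its call. Leaving out single arrays gave 0 to 1 higher and 0 to 1 lower. The median of the ceh genes stayed below 0 in each of 16 alternatives, at -0.32 to -0.10. All probe sets called numbered 1648, against 1027 with a pseudocount of 1, 905 without shared probe sets and 588 to 1201 without single arrays. Other homeobox genes called numbered 4, against 2 with a pseudocount of 1, 2 with averaged probe sets, 0 without space 1 and ground 3, and 0 to 3 without single arrays. Without space 1 and ground 3 together, ceh-91 stood at 2.02 (adjusted p = 0.0583) and ceh-39 at -1.13 (adjusted p = 0.109) in limma. The number of ceh genes below 0, 42 as reported, was 39 with averaged probe sets and 37 to 43 without single arrays. Only some ceh genes were followed singly through the alternatives, so the turned signs given here are not a full list. Among those followed, signs turned for ceh-37 (-0.47 as reported), ceh-20 (-0.15), ceh-88 (-0.11) and ceh-14 (-0.02), which were called under none of these settings. Without space 1 and ground 3, ceh-37 was at 0.024, ceh-20 at 0.082 and ceh-14 at 0.051. Averaged probe sets put ceh-20 at 0.042, and quantile normalization put ceh-14 at 0.0049. Over the fits that left out arrays, ceh-37 ran between -0.80 and 0.024, ceh-20 between -0.23 and 0.082, ceh-88 between -0.29 and 0.018, and ceh-14 between -0.28 (without ground 1) and 0.36 (without ground 2). The causes were not tested. With the replicate number as a block, 1 ceh gene rose and 2 fell, adding ceh-40 (-1.33, adjusted p = 0.04, limma). Same-numbered arrays correlated at 0.388, 0.058 and 0.171 in their deviations from the group means, so the numbers are not taken to pair the arrays, and not every array correlated best with its own number. Groups of 3 arrays are too small for a check for outlying arrays. Intensities close to those of absent sequences limit what can be seen of the 36 dim ceh genes.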

Other observations

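A probe set annotated with both ceh-63 and C02F12.5 was left out of the ceh genes because it names 2 genes. Its intensities were 168, 214.3 and 246 in space, against 157.6, 198.9 and 244.3 on the ground, which overlapped (log2 fold change 0.06 ± 0.25, limma adjusted p = 0.907). Of the 60 ceh genes 17 lie on the X chromosome and 13 on chromosome II in the RefSeq table. The shares of all genes on these chromosomes were not counted.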
